A study of Mus musculus and blank sample with 91 samples.

Results

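Fecal bacteria of 6 mice with experimental autoimmune encephalomyelitis (EAE) were followed from 2 days before immunization (day -2) to day 8, before symptoms. The 12 samples were taken by their labels, EAE at day -2 or day 8, out of 88 samples with counts (91 carried a label), and the 2 samples of a mouse were paired by the mouse number in the sample title (550, 551, 553, 555, 556 and 557). All 12 samples carried a clinical score of 0, and the day 8 body weights ran from 16.5 to 18.9 g.

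The mice were female C57BL/6J animals, 8 weeks old when bought, fed standard chow. EAE mice received a subcutaneous emulsion of a myelin oligodendrocyte glycoprotein (MOG) peptide in Complete Freund's Adjuvant (CFA), with pertussis toxin injected on days 0 and 2. Both comparison groups also had 6 mice sampled on both days: CFA mice received the adjuvant alone, and naive mice received nothing, so EAE differed from CFA by the MOG peptide and the toxin together. Mice lived 2 to 3 to a cage and treatments were assigned by cage. Cage mates share microbes and the labels give no cage, so cage and treatment cannot be told apart, and p-values over mice take each mouse as independent. EAE samples from day 14 on carry other mouse numbers and were not used here.

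EAE serves as an animal model of multiple sclerosis: T cells primed against a myelin protein enter the central nervous system after a silent phase. Gut bacteria are one source of the signals that such T cells meet: Clostridia of the families Ruminococcaceae and Lachnospiraceae ferment fibre and many make butyrate, lactobacilli ferment sugars to lactate in the upper gut, and Akkermansia lives on mucin at the mucus layer. Because sequencing gives shares of a fixed number of reads, a higher share of one group lowers the shares of all others, and a higher share and a larger number of cells cannot be told apart.

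The total count per EAE sample ran from 37156 to 64953 at day -2 and from 9202 to 56057 at day 8. At day 8 the sample of mouse 555 had 9202 counts in 3 genera, and that of mouse 551 had 17439 counts in 10 genera. The other 4 day 8 samples had 46272 to 56057 counts in 28 to 33 genera. A genus with no counts could have made up as much as 0.00462% to 0.0326% of a sample (3 counts of its total), which covers counting error only. Thinned to 9202 counts, the other 4 day 8 samples held 27.2 to 33.0 genera on average, against 10.0 in mouse 551. Results are given with all 6 pairs, and also without mouse 555 or without both mice where the value or the call depended on them.

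In all, 18 families and 54 genera had counts in the 12 samples. At day 8 the share of Lactobacillaceae was lower in 5 of 6 mice, Ruminococcaceae was higher in 6 of 6, and Verrucomicrobiaceae was higher in 5 and absent on both days in the other. The sum of the 4 families Clostridiaceae, Ruminococcaceae, Lachnospiraceae and Peptostreptococcaceae was higher in 6 of 6 mice. Paired by mouse in a two-sided exact sign-flip test, whose smallest possible p with 6 pairs is 0.0312, 1 of 18 families (5.56%) had an unadjusted p under 0.05 and 0 of 18 (0%) an adjusted one. For genera both counts were 0 of 54 (0%).

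**Figure D1:**
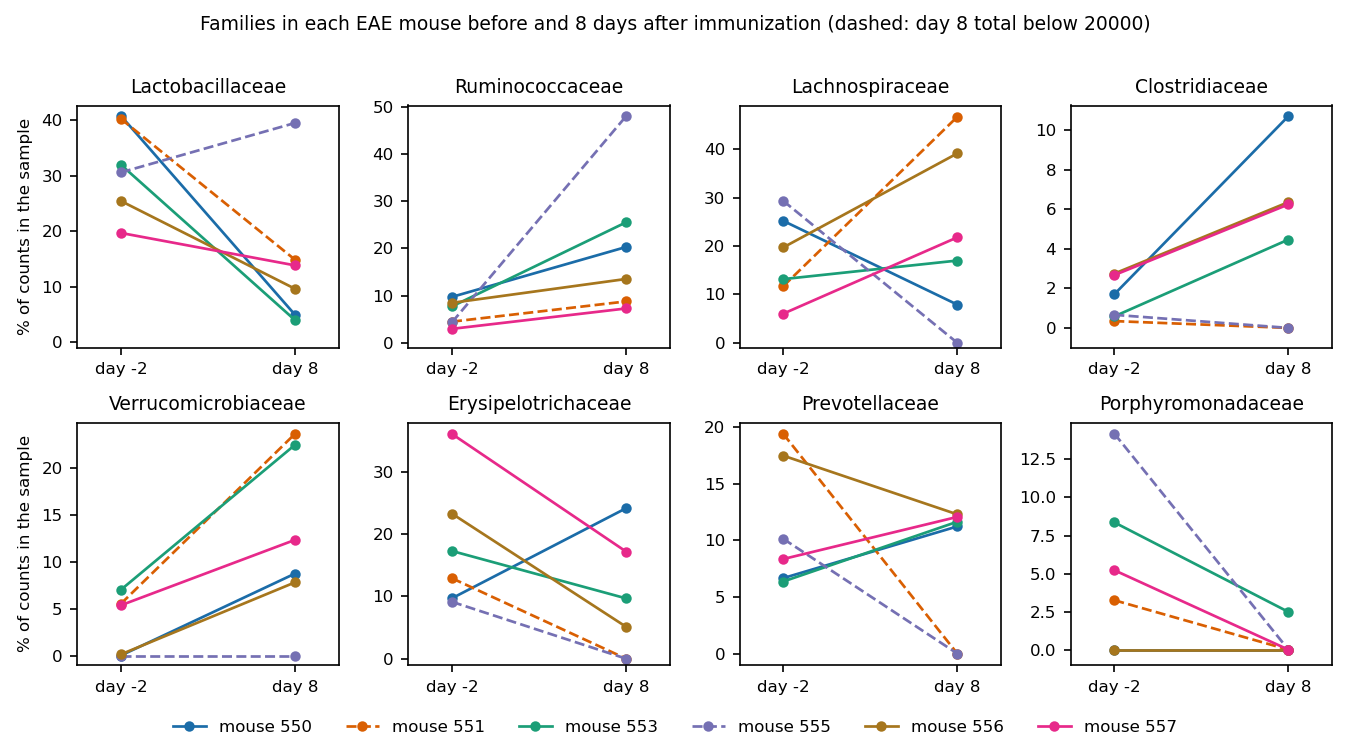
Share of each of 8 families in % of the counts in a sample (vertical axis) at day -2 and day 8 (horizontal axis), with 1 line per EAE mouse and dashed lines for mice 551 and 555, whose day 8 totals were below 20000. Lactobacillaceae lines go down in 5 of 6 mice, Ruminococcaceae lines go up in 6 of 6, and Clostridiaceae lines go up in the 4 mice drawn solid.

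The 4 Clostridia families, anaerobic fermenters, together made up 38.5%, 16.5%, 21.5%, 34.4%, 30.9% and 12.9% of the counts at day -2 in mice 550, 551, 553, 555, 556 and 557. At day 8 the same mice had 47.8%, 55.5%, 47.0%, 48.0%, 59.0% and 42.8%. Every day 8 value was above every day -2 value, so the days did not overlap. The mean change was 24.2 ± 11.0 percentage points (SD, n = 6 pairs, exact sign-flip p = 0.0312, the smallest that 6 pairs allow). The study named these families as expanding from data that include these samples, so the test is not independent evidence of the direction. Without mouse 555 it was 26.3 (p = 0.0625, the smallest that 5 pairs allow in the exact test), and as a share of counts outside Lactobacillaceae it was 21.2 (exact p = 0.0625). The same sum changed by 5.85 ± 20.4 points in naive mice and by 11.4 ± 11.8 in CFA mice, and the EAE change was not shown to differ from either, by 18.4 and 12.8 points (two-sided exact permutation p = 0.0887 and p = 0.0866).

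Ruminococcaceae, fibre-degrading anaerobes, stood at 9.75%, 4.50%, 7.73%, 4.37%, 8.49% and 2.98% at day -2 in the 6 mice in order of number. At day 8 they stood at 20.3%, 8.79%, 25.6%, 48.0%, 13.5% and 7.30%. The ratio between days was closest to even in mouse 556 and widest in mouse 555, and the days overlapped between mice. The mean change was 14.3 ± 15.3 points (exact sign-flip p = 0.0312, adjusted p = 0.375 over 18 families), and 8.41 ± 5.88 points without mouse 555, higher in 5 of 5.

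Within Ruminococcaceae the genera behind the higher share differed between mice. Ruminococcaceae_UCG-014, a group known mainly from sequences, was 48.0% of the counts of mouse 555 at day 8 and not detected in it at day -2. It was higher in mice 550 (2.36% to 9.83%), 553 (2.62% to 17.6%) and 557 (0.718% to 1.99%) and lower in mice 551 and 556. Ruminococcus, which includes degraders of cellulose and resistant starch, was 1.57%, 0.815%, 1.46%, 0%, 0.679% and 0.654% at day -2. At day 8 it was 3.79%, 6.30%, 2.07%, 0%, 4.72% and 1.44%, so it was higher in each of the 5 mice that carried it (exact sign-flip p = 0.0625). Ruminiclostridium, a genus of cellulose degraders, had no counts in any mouse at day -2, and at day 8 made up 3.17% in mouse 550, 3.16% in mouse 553 and 1.28% in mouse 556.

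Lachnospiraceae, which include many butyrate makers, did not move one way. Their share was higher at day 8 in mice 551 (11.7% to 46.7%), 553 (13.1% to 17.0%), 556 (19.7% to 39.1%) and 557 (6.00% to 21.8%). It was lower in mouse 550 (25.2% to 7.88%), and mouse 555 went from 29.3% to no counts. The mean change was 4.57 ± 24.1 points (exact sign-flip p = 0.625), so the spread between mice was larger than the mean. Without mouse 555 it was 11.3 ± 19.5 points, higher in 4 of 5 mice (exact sign-flip p = 0.25). The genus named Lachnospiraceae_NK4A136-Clostridium XlVa carried much of the high value of mouse 551, at 22.0% of its day 8 counts.

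Clostridium_sensu_stricto_1 and Romboutsia are spore-forming Clostridia found in the small intestine. Clostridium_sensu_stricto_1, the genus Clostridium in the narrow sense, was 1.47%, 0.345%, 0.583%, 0.662%, 2.75% and 2.67% at day -2. At day 8 it was 10.7% in mouse 550, 4.47% in 553, 6.37% in 556 and 6.25% in 557, and it had no counts in mice 551 and 555, the 2 with the lowest totals. Its mean change was 3.22 ± 3.60 points with 6 pairs and 5.09 in the 4 mice without those 2. Romboutsia, the only genus of Peptostreptococcaceae here, was found in the same 2 mice on both days, from 1.90% to 8.84% in mouse 550 and from 1.27% to 7.46% in mouse 557.

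Lactobacillaceae were almost wholly Lactobacillus johnsonii by the deposited taxonomy. At day -2 their share was 40.8%, 40.3%, 32.0%, 30.6%, 25.5% and 19.7%, and at day 8 it was 4.93%, 14.9%, 3.97%, 39.5%, 9.62% and 13.8%. The share at day 8 was lower by 8.28-fold in mouse 550, 2.71-fold in 551, 8.07-fold in 553, 2.65-fold in 556 and 1.42-fold in 557, whereas in mouse 555 it was 1.29 times its day -2 value. In the 5 mice with a lower share every day 8 value lay below every day -2 value, and mouse 555 at day 8 lay among the day -2 values. The paired exact sign-flip p was 0.0938, while the unpaired exact permutation test gave p = 0.0260 for the same mean difference of -17.0 points. Without mouse 555 the mean change was -22.2 ± 11.6 points, lower in 5 of 5 mice (exact sign-flip p = 0.0625, the smallest 5 pairs allow). On a centred log ratio scale (log2, pseudocount 0.5) the paired change was -0.52 with an exact sign-flip p of 0.562. Enterococcus, the other lactic acid genus looked for, had no counts in the 12 samples.

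Verrucomicrobiaceae were Akkermansia muciniphila alone. Its share was 0%, 5.51%, 7.01%, 0%, 0.122% and 5.36% at day -2 and 8.74%, 23.7%, 22.5%, 0%, 7.81% and 12.3% at day 8. Mouse 550 had it only at day 8, mouse 556 went from a trace to a main genus, and mouse 555 had it on neither day. The mean change was 9.50 ± 6.49 points over 6 pairs and 11.4 ± 5.06 points without mouse 555, both with an exact sign-flip p of 0.0625.

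Erysipelotrichaceae were mostly Turicibacter sanguinis, a spore former of the small intestine. Turicibacter was 9.70%, 12.8%, 17.3%, 9.13%, 22.0% and 35.9% at day -2, and 23.4%, 0%, 9.43%, 0%, 5.11% and 17.0% at day 8. It was lower in 5 of 6 mice and higher in mouse 550, with a mean change of -8.64 ± 11.8 points (exact sign-flip p = 0.156). Absiella/Eubacterium D, of the same family, averaged 0.256% and 0.0849%.

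Among Bacteroidales, which break down complex glycans, the 3 genera above 1% differed. Barnesiella, the only genus of Porphyromonadaceae here, was 3.25%, 8.37%, 14.2% and 5.22% in mice 551, 553, 555 and 557 at day -2, and at day 8 it was left only in mouse 553, at 2.48%. Muribaculum was found only in mice 553 (4.45%) and 557 (10.2%) at day -2 and in no mouse at day 8. Prevotella was 6.66%, 6.36% and 8.34% in mice 550, 553 and 557 at day -2 and 11.2%, 11.6% and 12.1% at day 8, lower in mouse 556 (17.5% to 12.3%), and without counts at day 8 in mice 551 and 555, which had 19.4% and 10.1% before. Summed over the 4 listed Bacteroidales genera with counts, the share went from a mean of 19.0% to 8.28% of the counts and was lower in 5 of 6 mice.

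Eubacteriaceae, here Eubacterium coprostanoligenes, a cholesterol-reducing species by name, made up 0.396%, 0.538%, 0.579%, 0.568%, 1.71% and 0.798% at day -2. At day 8 they made up 2.67%, 0%, 2.40%, 12.5%, 2.59% and 1.56%, higher in 5 of 6 mice (mean change 2.85 ± 4.54 points, exact sign-flip p = 0.0625). Without mouse 555 the mean change was 1.04 ± 1.09 points, higher in 4 of 5 mice (exact sign-flip p = 0.125). Oscillospiraceae averaged 1.26% at day -2 and 1.45% at day 8. The remaining 6 families were each below 1% on average on both days, with mean changes from -0.227 to 0.104 points.

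**Figure D2:**
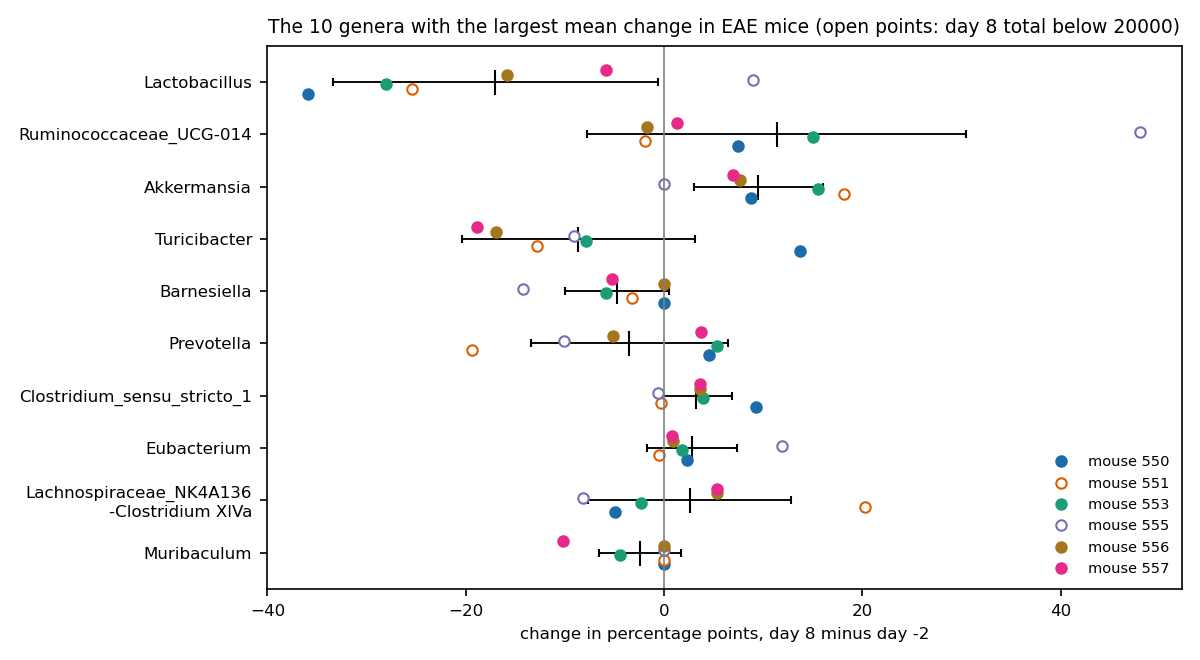
Change in percentage points from day -2 to day 8 (horizontal axis) for the 10 genera with the largest mean change (vertical axis), with 1 point per EAE mouse, open for mice 551 and 555, and bars at the mean and SD. Lactobacillus lies left of 0 in 5 of 6 mice and Akkermansia lies right of 0 in 5, and the SD bars of the other 8 genera span 0.

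The 7 genera of the butyrate-associated list with counts did not change as one. Their summed share was higher at day 8 in 5 of 6 mice, from a mean of 6.03% to 8.71%, and 4 of the 7 had a higher mean and 3 a lower one. Eubacterium alone changed by 2.85 points on average, against 2.68 for the sum, so the other listed genera together did not have a higher mean. In mouse 555 the whole listed share at day 8, 12.5%, was Eubacterium. Coprococcus was higher in the 4 mice that carried it, for example 0.657% to 1.29% in mouse 550 and 0.627% to 2.25% in mouse 556. Anaerostipes was found in mouse 550 alone at day -2 (3.92%) and in 5 of 6 mice at day 8 (0.505% to 1.98%). Flavonifractor was found in 5 mice at day -2 (0.932% to 1.84%) and in 2 at day 8, Roseburia had 3 mice higher and 3 lower, and Flintibacter averaged 0.526% and 0.738%. The median of the mean changes was 0.212 points over these 7 genera and 0.0304 points over all 54 genera, of which 30 had a higher mean at day 8. The 3 fibre-degrading Ruminococcaceae genera together went from a mean of 0.863% to 4.38%, higher in 5 of 5 mice that had them.

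A count model was fitted across all groups of the series with edgeR's quasi-likelihood test, without pairing. Between EAE day 8 and day -2 it called 0 of 23 families (0%), 4 of 65 genera (6.15%) and 0 of 203 distinct sequences (0%) at an adjusted p under 0.05. Unadjusted p-values under 0.05 numbered 5 families, 14 genera and 64 sequences, and DESeq2 called 5 families, 14 genera and 52 sequences. The genus called higher was Ruminiclostridium and those called lower were Muribaculum, Anaeroplasma and Stomatobaculum, each with an edgeR adjusted p of 0.0441. All 4 had no counts in any mouse on one of the days and were present in 1 to 3 mice on the other: Anaeroplasma, a wall-less Mollicute, was 1.17% in mouse 550 and 0.122% in mouse 556, and Stomatobaculum was 0.765% in mouse 550 only. All 4 were also called by DESeq2 (adjusted p of 0.00169 or less) and by edgeR with no filter on rare taxa (adjusted p = 0.0275 to 0.0358). None of the 4 was called by edgeR without mouse 555 (adjusted p = 0.0542 to 0.0669) or with library totals as the only scaling (0.0532 to 0.0774). None of the 4 was called after leaving out any other single mouse either, and 1 other genus, Anaerostipes, was called without mouse 550. With the mouse as a block, or with only the 12 samples in the fit, Ruminiclostridium alone of the 4 was tested (edgeR adjusted p = 0.628 and 0.115). Lactobacillaceae had an adjusted p of 0.0803 in the edgeR fit, and of 0.0550 with the mouse as a block. It was called lower by DESeq2 (adjusted p = 0.00853) and by edgeR with only the 12 samples in the fit (adjusted p = 0.0032). In the fit, scaling factors (TMMwsp) were 6.08 for mouse 555 and 2.62 for mouse 551 at day 8, against 0.918 to 1.44 for the other 4; their part in the calls was not tested beyond these refits.

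The change in EAE mice was then set against the change in the other treatments over the same days. Peptostreptococcaceae and Clostridiaceae went opposite ways on average in EAE and CFA mice. All 6 CFA mice had Romboutsia at day -2 (0.565% to 4.68%) and none had it at day 8, while the 2 EAE mice with Romboutsia had more. The other 4 EAE mice had no Romboutsia on either day and so could not be lower, so the groups differed in carriers at day -2, 2 of 6 against 6 of 6. Clostridium_sensu_stricto_1 was 0.410% to 2.93% in the 6 CFA mice at day -2 and had no counts in any at day 8. The changes differed by 5.04 points for Peptostreptococcaceae and 4.68 points for Clostridiaceae (two-sided exact permutation p = 0.00216 and 0.00433, each with an adjusted p of 0.0498).

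Porphyromonadaceae also differed between EAE and CFA. In CFA mice Barnesiella went from a mean of 1.51% to 5.31% and was higher in 5 of 6, and the EAE change was lower by 8.56 points (exact permutation p = 0.00649, adjusted p = 0.0498). These 3 of 23 families (13%) passed, 0 of 65 genera (0%) passed, and without mouse 555 Verrucomicrobiaceae passed too (exact permutation, adjusted p = 0.0166). No CFA mouse had a count of Akkermansia on either day, so that difference sets a change against a constant 0. Without both shallow pairs Porphyromonadaceae no longer passed (exact permutation, adjusted p = 0.0821). Ruminococcaceae and Eubacteriaceae were each higher in 5 of 6 CFA mice, by 4.43 and 0.826 points on average over the 6. The EAE change was not shown to differ from these, by 9.85 and 2.02 points (exact permutation p = 0.115 and 0.342). Without mouse 555 the differences were 3.98 and 0.213 points (exact permutation p = 0.264 and 0.682).

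Turicibacter was lost to detection in the CFA mice. It made up 4.53% to 17.3% of their counts at day -2 and had no counts in any of the 6 at day 8, while 4 of 6 EAE mice held 5.11% to 23.4%. The naive mice had 6.24% to 28.8% at day -2 and 4.14% to 40.1% at day 8. In percentage points the EAE and CFA changes overlapped (-8.64 against -11.4, exact permutation p = 0.71), whereas on the log scale of edgeR the change differed with an adjusted p of 9.17e-06. The 2 EAE mice without Turicibacter at day 8 were 551 and 555.

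Against naive mice no family passed the exact permutation test after adjustment (0 of 20, 0%), and 5 had an unadjusted p under 0.05. These were Verrucomicrobiaceae, with a mean change of -0.98 points in naive mice, Eubacteriaceae (-0.0768), Ruminococcaceae (1.57), Clostridiaceae (-0.595) and Peptococcaceae (0.657). The differences were 10.5, 2.93, 12.7, 3.78 and -0.883 points (exact permutation p = 0.0195, 0.0216, 0.0238, 0.0346 and 0.0368, each with an adjusted p of 0.147). Without mouse 555 the difference was 1.12 points for Eubacteriaceae and 6.84 points for Ruminococcaceae (exact permutation p = 0.0390 and 0.0433). Without mice 551 and 555, Clostridiaceae and Eubacteriaceae passed (exact permutation, adjusted p = 0.0476 for each). Of the genera 0 of 58 (0%) passed. The change in Lactobacillaceae differed by -12.3 points from naive mice and by -8.80 points from CFA mice (exact permutation p = 0.405 and 0.351; against CFA mice -14.0 points without mouse 555, p = 0.134): the naive changes alone had an SD of 30.9 points.

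With edgeR's adjusted p, 3 of 23 families (13%) and 5 of 65 genera (7.69%) changed differently in EAE than in naive mice, and 1 of 23 families (4.35%) and 8 of 65 genera (12.3%) differently than in CFA mice. Peptostreptococcaceae, with its genus Romboutsia, was called in both, higher in EAE. Against naive mice the other calls were Ruminiclostridium, higher in EAE, and Anaeroplasma, Clostridiales_vadinBB60 and the genus Intestinimonas/Ruminiclostridium_9, lower in EAE, all of them at most 1.46% in any of these samples except Ruminiclostridium. Against CFA mice Ruminiclostridium, Turicibacter, Clostridium_sensu_stricto_1, Blautia and Longibaculum/Candidatus Stoquefichus were called higher, and Stomatobaculum and Anaeroplasma lower. Some calls rested on few mice. Longibaculum/Candidatus Stoquefichus was in 1 EAE mouse at day 8 (0.175%) and 1 CFA mouse at day -2 (0.453%). Blautia was in 3 EAE mice at day 8 and 1 CFA mouse at day -2 (0.0684%), and Stomatobaculum in 1 EAE mouse, at day -2. Romboutsia was in 2 EAE mice and in 1 naive mouse, at day -2 (exact permutation p = 0.273). With the mouse as a block, in fits that held 16 or 17 families and 50 genera, 0 families and 0 genera were called in either comparison by edgeR, with 1 to 6 unadjusted p-values under 0.05 in each.

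**Figure D3:**
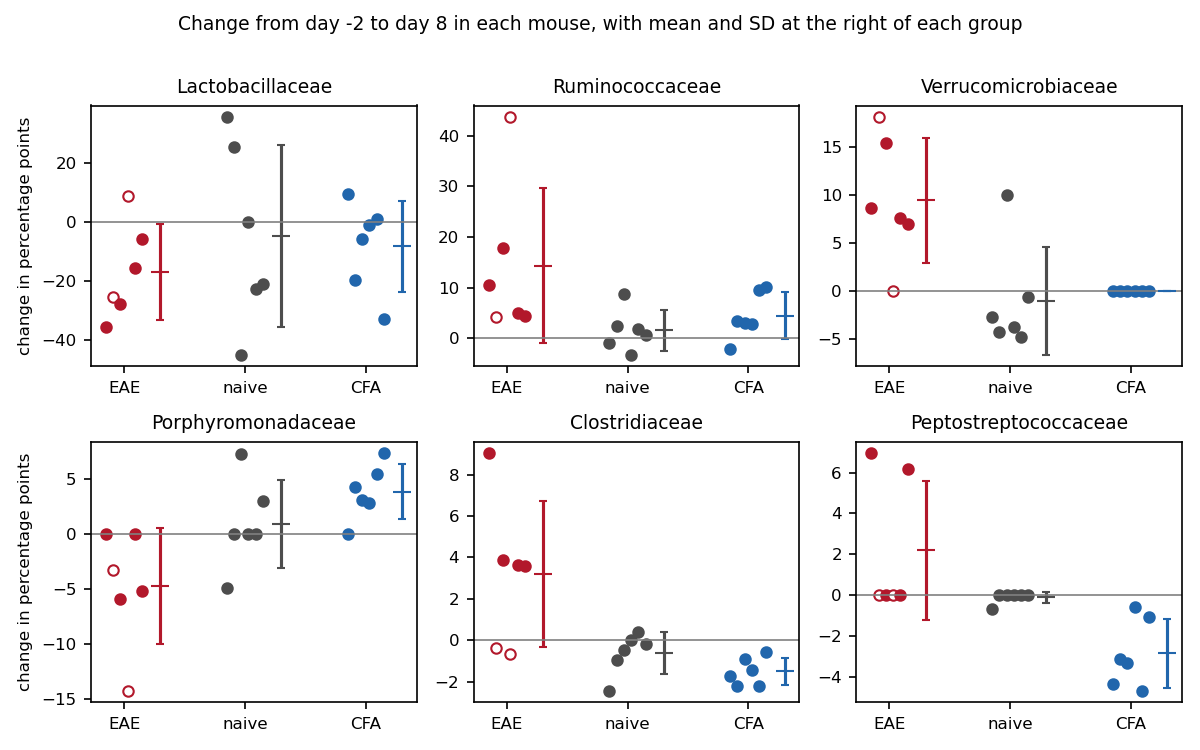
Change in percentage points from day -2 to day 8 (vertical axis) of 6 families in EAE, naive and CFA mice (horizontal axis, 6 mice each), with the mean and SD at the right of each group and open points for EAE mice 551 and 555. Peptostreptococcaceae lies below 0 in all 6 CFA mice and at or above 0 in the EAE mice, and Verrucomicrobiaceae lies at 0 in all CFA mice.

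Genus composition as a whole differed more between the 2 days in EAE mice than in CFA mice. The Bray-Curtis distance, 0 for identical and 1 for non-shared composition, was 0.639, 0.725, 0.565, 0.688, 0.444 and 0.434 in EAE mice 550, 551, 553, 555, 556 and 557. It averaged 0.583 ± 0.123 in EAE, 0.416 ± 0.148 in naive and 0.344 ± 0.125 in the CFA group (SD over 6 mice). The EAE mean exceeded that of CFA by 0.239 (exact permutation p = 0.0130; 0.217 and p = 0.0216 without mouse 555, 0.177 and p = 0.0571 without mice 551 and 555) and naive by 0.166 (exact permutation p = 0.0628). The 2 largest distances belonged to the 2 shallow day 8 samples.

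A mouse's day 8 sample was no nearer to its own day -2 sample than to those of the other mice of its group in EAE and in naive mice. The mean distance was 0.583 to its own and 0.569 to the others in EAE mice, 0.416 and 0.400 in naive mice, and 0.344 and 0.418 in CFA mice, and in 0 of 6 EAE mice was its own the nearest, against 1 of 6 naive and 3 of 6 CFA mice. The EAE mice also lay farther apart at day 8: the mean distance over the 15 pairs of mice was 0.356 at day -2 and 0.605 at day 8, or 0.351 and 0.495 among the 5 mice without 555.

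EAE mice held fewer of their day 8 counts than CFA mice in sequences already seen in the same mouse at day -2. Sequences found on both days made up 60.1%, 64.1%, 69.5%, 39.5%, 69.4% and 75.3% of the day 8 counts in the 6 mice. The mean was 63.0% ± 12.6 in EAE, 79.4% ± 16.8 in naive and 81.1% ± 5.24 in CFA mice, lower than in CFA mice by 18.1 points (exact permutation p = 0.00433, adjusted p = 0.0433 over 10 such comparisons; 12.5 points lower without mice 551 and 555, p = 0.0143) and not separable from naive mice (exact permutation p = 0.0866). At the level of genera the share of day 8 counts was 83.1%, 88.0% and 90.0%, and no difference passed. The reverse measure, day -2 counts in sequences found on both days, averaged 67.1% in EAE, 84.0% in naive and 75.2% in CFA mice. Neither difference passed (exact permutation p = 0.143 against naive and 0.470 against CFA mice). Without mice 551 and 555 the EAE mean was 80.8%. Counts were not thinned for these shares, and median day -2 totals were 50097 in EAE and 64455 in CFA mice. The part of depth was not tested.

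Genus diversity did not move one way. The Shannon metric (natural log) was 2.39, 2.05, 2.39, 2.35, 2.40 and 2.11 at day -2 and 2.54, 2.03, 2.59, 0.979, 3.08 and 2.67 at day 8. The mean change was 0.0349 ± 0.736 (exact sign-flip p = 0.875), and 0.316 ± 0.294 without mouse 555 (exact p = 0.125). Mouse 551 differed by -0.0125, and the other 4 were higher by 0.142 to 0.686.

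**Figure D4:**
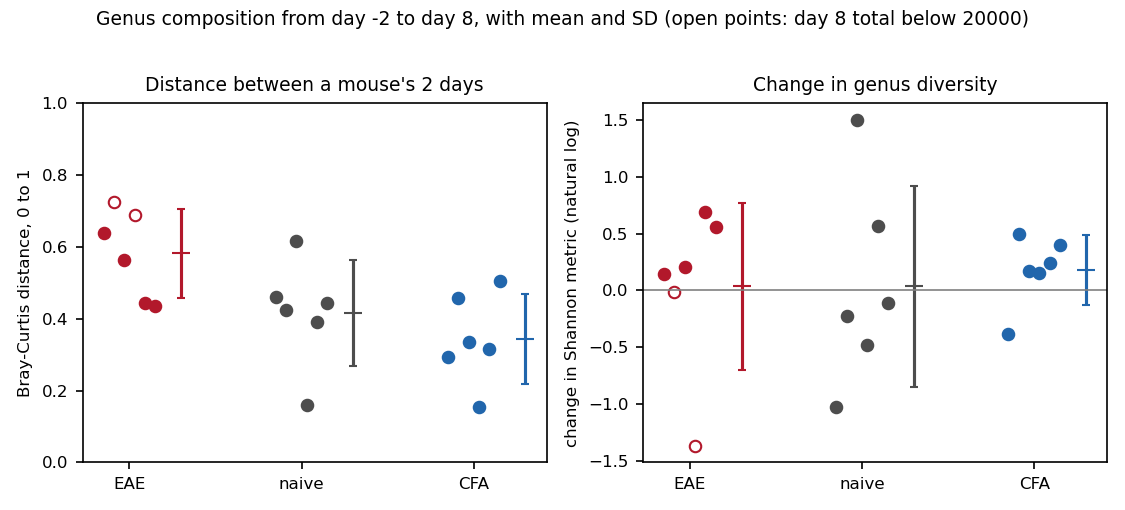
Left, Bray-Curtis distance between the genus compositions of a mouse's 2 days (0 to 1); right, change in the Shannon metric from day -2 to day 8, for EAE, naive and CFA mice (6 each), with mean and SD and open points for EAE mice 551 and 555. The EAE distances run from 0.434 to 0.725 and the CFA distances from 0.154 to 0.506, and the Shannon change of mouse 555, at -1.37, lies apart from the other EAE mice.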

How the data were processed

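DNA from fecal pellets was amplified over regions V3 and V4 of the bacterial 16S gene and sequenced on an Illumina MiSeq. The authors inferred amplicon sequence variants (ASVs) with DADA2 and named them, and deposited whole-number read counts per ASV with a taxonomy table, both used as deposited; its family, genus and species names are the authors' calls. Of 2295 ASVs, 2274 held both primers, and cutting the primers off left 501 distinct sequences. Counts were summed by family (26), genus (73) and distinct sequence and divided by the sample total to give percents, and the Shannon metric and Bray-Curtis distance were taken from the genus values. Every row of the count table matched a label.

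Changes within a mouse were tested by a two-sided exact sign-flip test, and changes between treatments by a two-sided exact permutation test of 6 against 6 mice, whose smallest p is 0.00216, with Benjamini-Hochberg adjustment over all families or genera with counts. edgeR 4.0.16 (TMMwsp, quasi-likelihood, taxa in at least 3 samples) in R 4.3.3 was the count model, with DESeq2 1.42.0 (poscounts) as an alternative. SciPy and numpy under Python did the rest. The edgeR step was tried on simulated counts whose spread between samples (dispersion) was set below the common values fitted here. Those were 4.58 for families, 6.87 for genera and 15.8 for distinct sequences, so the trial does not give its error rate at this spread. An adjusted p under 0.05 was a call. The number in the title marks the same mouse, so the percents were paired; deviations of a mouse's 2 samples from their group means (centred log ratios) correlated between -0.219 and 0.115 in EAE mice.

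Every family with counts, at most 10 genera with the largest mean change, the called genera and the listed genera with a mean of 0.1% or more were named. Members and lists were chosen with earlier results of these data known. The exact tests of each taxon's change between treatments, and the share of counts in sequences seen on both days, were added after seeing the data. The labels give separate mice, and the exact tests of changes use the change of each mouse, so their p-values measure the spread between mice. The edgeR and DESeq2 fits without a mouse term take all samples as independent, though mice were sampled on several days. Their p-values do not measure the spread between mice alone. Water controls were not analysed here.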

Additional observations from a re-analysis of the deposited data

Results flagged for a closer look

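A gap test was run on families, genera and the Shannon metric without adjustment. Normally distributed values pass its limit in about 1 in 20 groups of 6, so some passes can come by chance. Single mice stood far from the other 5 in it. Mouse 555, with the lowest day 8 total, did so for its day 8 share of Lactobacillaceae (39.5%), of Eubacteriaceae (12.5%) and of Ruminococcaceae_UCG-014 (48.0%). It also did so for its changes in Ruminococcaceae (43.7 points), Ruminococcaceae_UCG-014 (48.0 points), Eubacteriaceae (11.9 points) and the Shannon metric (-1.37). Mouse 550 did so for its changes in Erysipelotrichaceae (14.5 points) and in Turicibacter (13.7 points), mouse 551 for Lachnospiraceae_NK4A136-Clostridium XlVa at day 8 (22.0%), mouse 553 for Porphyromonadaceae at day 8 (2.48%), and mouse 556 for Eubacteriaceae at day -2 (1.71%). The other 5 mice had no Porphyromonadaceae at day 8, so any count in mouse 553 had to pass, and the 1 in 20 rate does not apply. Erysipelotrichaceae and Turicibacter share counts, as do Ruminococcaceae and Ruminococcaceae_UCG-014 in mouse 555, so these passes are not separate.

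The change from day -2 to day 8 differed between EAE and naive mice, by edgeR's adjusted p, for the families Peptostreptococcaceae (2.30 points between the mean changes), Anaeroplasmataceae (-0.596) and Clostridiales_vadinBB60 (-0.216). The genera were Ruminiclostridium (1.29), Romboutsia (2.30), Anaeroplasma (-0.596), Clostridiales_vadinBB60_NA (-0.216) and Intestinimonas/Ruminiclostridium_9 (-0.177). edgeR tested a log scale, not the points printed. For the points, the exact permutation test gave the 3 families p = 0.273, 0.227 and 0.0758, and 0 of 58 genera passed after adjustment. None of these edgeR calls was made with the mouse as a block.

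Between EAE and CFA mice the change differed, by edgeR's adjusted p, for Peptostreptococcaceae and its genus Romboutsia (5.04 points), Turicibacter (2.78), Clostridium_sensu_stricto_1 (4.81), Ruminiclostridium (1.34), Blautia (0.243), Longibaculum/Candidatus Stoquefichus (0.105), Stomatobaculum (-0.437) and Anaeroplasma (-0.550). By the exact permutation test it also differed for Clostridiaceae (4.68 points) and Porphyromonadaceae (-8.56 points). In that test of the points, 0 of 65 genera passed after adjustment. None of these calls by edgeR was made with the mouse as a block and all 6 pairs, a fit in which Longibaculum/Candidatus Stoquefichus was not tested.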

How the results depend on the processing

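The paired change in the share of Lactobacillaceae kept its direction in every alternative tried on the percents and centred log ratios, and passed only with no replicate block, where the exact permutation test of the same -17.0 points gave p = 0.0260. With 5 or 4 pairs the smallest exact p is 0.0625 or 0.125, so no paired test without a mouse could pass. The change in the 4 Clostridia families, a group the study chose on these data, passed the paired test at 24.2 points. It kept its direction without mouse 555 (26.3) and without mice 551 and 555 (23.2), where it could not pass. It missed the threshold as a centred log ratio (2.20, log2) and outside Lactobacillaceae (21.2). Leaving out each mouse in turn gave 21.3 to 27.2 points. The Bray-Curtis difference between EAE and CFA missed the threshold without mice 551 and 555 (0.177).

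Families with an unadjusted p under 0.05 numbered 1 in the paired test, 0 without mouse 555 or without both, as 5 or 4 pairs must give, and 4 with no replicate block. Genera numbered 0, and 3 as centred log ratios and 3 with no replicate block.

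Calls moved with the model. For EAE day 8 against day -2, families went from 0 to 5 with DESeq2, and to 1 with totals alone or with only the samples compared. Genera went from 4 to 14 with DESeq2. They went to 0 with totals alone, without mouse 555 or without both pairs, and with only the samples compared or the mouse as a replicate block, which each tested 1 of the 4, and to 0 to 1 when each mouse was left out. Distinct sequences went from 0 to 52 with DESeq2, and to 1 with totals alone or only the samples compared.

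Against naive mice, families went from 3 to 6 with DESeq2, 1 with only the samples compared and 0 with the replicate block, with or without mouse 555. The exact permutation test gave 0 with 6 pairs and without mouse 555, and 2 without both. Genera went from 5 to 13 with DESeq2, 3 with only the samples compared, 0 with the replicate block, with or without mouse 555, and 0 in the exact permutation tests. Against CFA mice, families went from 1 to 8 with DESeq2, 0 with the replicate block and 2 with the block and without mouse 555. The exact permutation test gave 3, 4 without mouse 555 and 3 without both. Genera went from 8 to 15 with DESeq2, 0 with the replicate block and 4 with the block and without mouse 555. The exact permutation tests gave 0, 3 without mouse 555 and 0 without both. The cause of these differences was not tested. Exclusion of both pairs, the block without mouse 555 and the exact tests of each taxon were chosen after seeing the data.

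With 6 pairs and 2 day 8 samples of few genera, changes of single taxa smaller than the spread between mice could not be told from it. Shares are relative, cages are not known, and the 4 genera that edgeR called between the EAE days were absent from most of the 12 samples. Water controls and bacterial load were not analysed here.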

Other observations

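Leaving out mice 551 and 555, 7 of the 54 genera differed between the days in the same direction in all 4 remaining EAE mice. Lactobacillus was lower in each, and Akkermansia, Clostridium_sensu_stricto_1, Eubacterium, Ruminococcus, Coprococcus and Acutalibacter were higher. In CFA mice over the same days Eubacterium and Ruminococcus were each higher in 5 of 6, Clostridium_sensu_stricto_1 was lower in 6 of 6 and Acutalibacter in 5 of 6. Lactobacillus was lower in 4 of 6 CFA mice, Coprococcus was higher in 3 and lower in 2, and Akkermansia had no counts. In naive mice Lactobacillus was lower in 4 and higher in 2, Akkermansia lower in 5 and higher in 1, and Eubacterium lower in 4 and higher in 2. Clostridium_sensu_stricto_1 was lower in 4 naive mice and higher in 0, and Ruminococcus (3 and 3) and Coprococcus (2 and 2) were even. The 4 mice were chosen after their totals were seen, and no test was run on this count. Directions in 4 mice can agree by chance in some genera, so the count is not read as a result.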
